A study of Saccharomyces cerevisiae with 25 samples.

Results

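The genes described here encode the proteins of the small (40S) subunit of the cytosolic ribosome of budding yeast. They were chosen by name, as RPS followed by a number and an optional A or B, plus ASC1, which gave 57 genes of the 6650 named genes in the deposited matrix. These 57 genes encode 33 proteins, 24 of them from an A and a B copy and 9 from a single gene. Of the 57, 37 have an intron in their coding sequence and 20 do not.

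RNA was sequenced from BY4741, a haploid laboratory strain of mating type a that lacks HIS3, LEU2, MET17 and URA3 and is labelled wild type here. Cells grown overnight in phosphate-rich medium were washed and moved to medium without phosphate. The data hold 25 libraries, 1 at 0 min in high phosphate and 24 from 15 to 360 min without phosphate at steps of 15 min. Each time has 1 library, so 4 neighbouring times were grouped into each of 6 windows. The first window covers 15 to 60 min, the next begin at 75, 135, 195 and 255 min, and the last covers 315 to 360 min. The strain, genotype and medium before transfer were the same for every library, and no wild-type course kept in phosphate was used here. HIS3, LEU2, MET17 and URA3 were listed in 0 of the 25 libraries. STE2, the receptor made by cells of mating type a, was listed in all 25, with 120 to 784 reads. Among genes of mating type alpha, STE3 was listed in 24 libraries with 13 to 52 reads and SAG1 in 17 with 10 to 28. MF(ALPHA)1 was listed in 6 and MF(ALPHA)2 in 0.

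The 40S subunit binds the messenger RNA and reads its codons, and it is built from 1 ribosomal RNA and the proteins described here. Its head and its body move against each other during translation. In yeast the ribosomal protein genes are among the most highly transcribed genes in growing cells. Most of their promoters are bound by Rap1 with the factors Fhl1 and Ifh1, whose activity depends on the TORC1 and protein kinase A pathways, so that the genes are turned down together when nutrients run short. Many of the genes are kept as a pair of copies left from an ancient duplication of the genome.

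Levels are log2 RPM, which is the log2 of the reads per 1000000 reads of the library, so a lower level is a smaller share of the library and not a number of molecules per cell. In these bulk samples a lower level in all cells and a loss in some of the cells cannot be told apart. Depth was recovered from the smallest listed values. It was lowest at 120 min, with 209394 reads, and highest at 75 min, with 1737019. The 120 min library listed 3261 genes, against 4325 to 5392 in the others. Of the 57 genes, 56 had a value in all 25 libraries, while RPS28B was listed in only 14 and entered no test. PHO84, the high-affinity phosphate transporter, was at 6.88 log2 RPM at 0 min and 10.47 at 360 min, and PHO5, a secreted acid phosphatase, was at 8.62 and 12.66.

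In the copies of RPS27 and RPS28 the letters show how far reads can be told apart. RPS27 encodes a zinc-binding protein of the body and RPS28 a protein of the head near the mRNA exit. The spliced coding sequences are printed 5′ to 3′ from the RefSeq annotation of build R64, with the bases that differ between the 2 copies in capitals. RPS27A lies at chrXI:158613-159212 on the plus strand and RPS27B at chrVIII:147871-148669 on the minus strand. RPS28A lies at chrXV:648804-649007 on the minus strand and RPS28B at chrXII:673131-673334 on the plus strand.
RPS27A: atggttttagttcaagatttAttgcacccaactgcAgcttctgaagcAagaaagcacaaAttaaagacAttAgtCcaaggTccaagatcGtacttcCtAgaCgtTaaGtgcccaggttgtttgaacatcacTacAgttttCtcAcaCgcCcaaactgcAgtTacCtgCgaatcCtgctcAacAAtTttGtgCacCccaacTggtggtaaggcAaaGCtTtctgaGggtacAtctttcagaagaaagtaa
RPS27B: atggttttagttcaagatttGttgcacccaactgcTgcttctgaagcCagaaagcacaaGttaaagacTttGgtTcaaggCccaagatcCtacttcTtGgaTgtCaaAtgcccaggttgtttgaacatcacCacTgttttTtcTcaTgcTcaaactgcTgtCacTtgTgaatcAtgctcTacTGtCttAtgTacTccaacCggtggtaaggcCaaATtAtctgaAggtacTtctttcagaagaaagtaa
RPS28A: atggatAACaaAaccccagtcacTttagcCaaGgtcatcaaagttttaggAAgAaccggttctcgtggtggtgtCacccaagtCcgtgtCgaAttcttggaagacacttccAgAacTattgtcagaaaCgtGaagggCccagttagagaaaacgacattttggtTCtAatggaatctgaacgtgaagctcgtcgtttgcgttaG
RPS28B: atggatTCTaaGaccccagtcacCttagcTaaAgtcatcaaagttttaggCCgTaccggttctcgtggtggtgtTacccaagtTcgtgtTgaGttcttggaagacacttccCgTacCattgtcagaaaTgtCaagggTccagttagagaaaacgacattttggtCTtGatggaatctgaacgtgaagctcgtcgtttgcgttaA
The RPS27 copies differ at 39 of 249 bases and the RPS28 copies at 24 of 204. Across the 24 pairs the coding sequences were 84.3% to 99.2% identical, and the proteins of 9 pairs were identical. How reads that match both copies were assigned is not given in the sources used here. The recovered read numbers of many copies were not whole, such as 3151.9 for RPS0A and 2743.1 for RPS0B at 0 min. Those of single-copy genes such as RPS2, at 5253.0, and RPS3, at 3601.0, were whole. Values of this kind arise where a read that matches both copies is divided between them, which was not tested. In 4 pairs, RPS6, RPS4 and RPS24 among them, the copies share over 30% of their stretches of 36 bases, so the values of their single copies are uncertain. The doubt is not confined to these pairs. RPS22 and RPS29 share 0.0% of such stretches, yet their copies had 2789.4 and 698.6, and 2016.2 and 1815.8 reads at 0 min. In RPS27 both numbers were whole, 864.0 and 1780.0 at 0 min.

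Together the 57 genes took 12.388% of all reads in high phosphate and 11.248% at 15 min. The share was still 10.368% at 105 min, then 7.937% at 120 min, 5.179% at 135 min and 2.997% at 150 min. From 195 to 360 min it lay between 1.457% and 2.772%. The share thus fell little over the first 105 min and most within the next 45 min, and it was lower still from 195 min on. The ratio of small-subunit to large-subunit reads was 0.63 to 0.65 up to 105 min, 0.547 at 120 min and 0.587 to 0.624 from 195 min on.

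**Figure D1:**
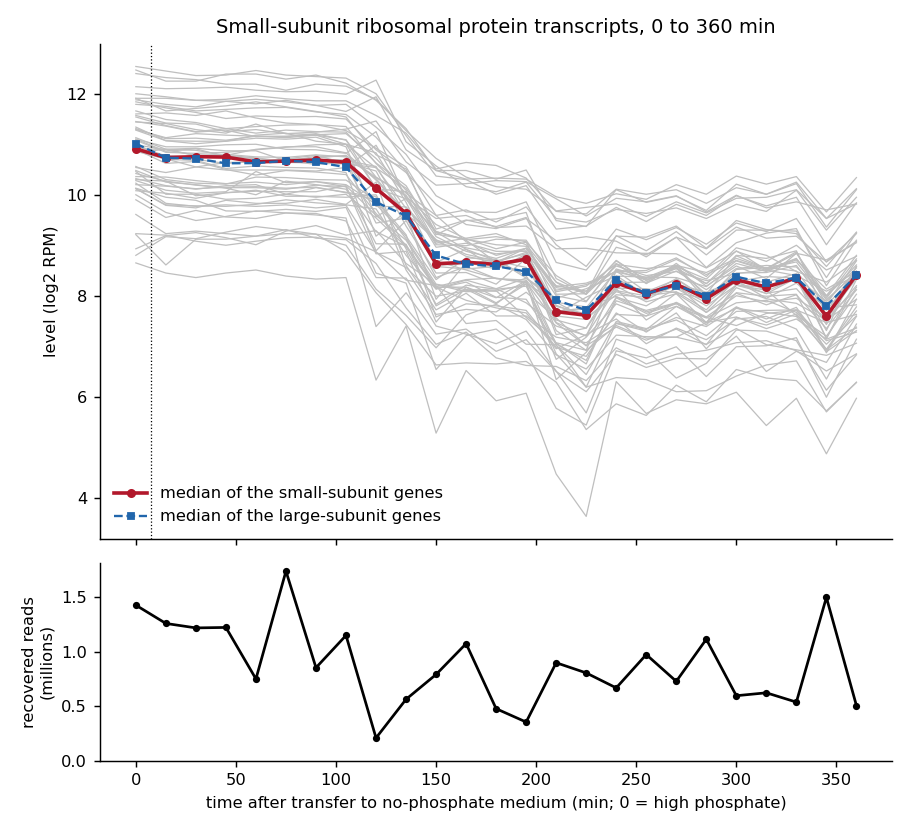
Upper panel: level of each of the 56 genes listed in every library (grey lines, log2 RPM) against time in minutes, with the median of the small-subunit genes (red circles) and of the large-subunit genes (blue squares); the dotted line separates the high-phosphate sample. Lower panel: recovered reads of each library, in units of 1000000. The medians change little to 105 min, fall most between 105 and 150 min and are lower still from 210 min on. The 120 min library is the shallowest.

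All 56 tested genes were lower at 315 to 360 min than at 15 to 60 min (limma, adjusted p under 0.05 over 4535 genes), where 10.0% of all genes tested were lower and 37.8% were higher. In each of the 56 every late sample lay below every early one, against 10.3% of all genes. Their median change was -2.65 log2 units, while the median over all genes tested was 0.33. The large-subunit genes were lower in 80 of 81, with a median of -2.49. Centring each sample on its median gene gave a median change of -3.00. Because the samples are successive times of 1 course, and nothing says that they came from separate cultures, every p-value here reflects the scatter from one time to the next and not that between independent courses.

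The largest falls were in genes of both the head and the body. RPS16B, whose protein uS9 has a tail that reaches the P site, stood at 10.19, 10.12, 10.19 and 10.21 log2 RPM from 15 to 60 min. It stood at 7.60, 7.35, 6.36 and 7.45 from 315 to 360 min. Every late value was well below every early one, and the change was -2.99 (SE 0.23, limma adjusted p 3.36e-11). RPS26B, a copy of the protein that sits at the mRNA exit, stood at 9.96, 9.90, 9.69 and 9.68 early. Late it stood at 7.02, 7.18, 6.00 and 7.15, with the 345 min sample lowest. Its change was -2.97 (SE 0.37, limma adjusted p 9.26e-07). RPS9B, a copy of uS4, which matters for the accuracy of decoding, stood at 11.50, 11.44, 11.32 and 11.36 early. Late it stood at 8.51, 8.74, 8.01 and 8.56, and its change was -2.95 (SE 0.22, limma adjusted p 7.05e-12). RPS22A, a copy of uS8 in the body, stood at 10.75, 10.71, 10.63 and 10.67 early and at 8.12, 7.62, 7.21 and 8.04 late. The groups were far apart, with a change of -2.94 (SE 0.27, limma adjusted p 3.53e-09).

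The smallest falls were in 3 genes of short proteins and in a gene of the decoding centre. RPS28A stood at 11.42, 11.30, 11.23 and 11.41 log2 RPM early and at 9.75, 9.87, 9.71 and 9.83 late. Its late samples lay close together and far below the early ones, and the change was -1.55 (SE 0.14, limma adjusted p 3.4e-11). RPS23A, a copy of uS12 of the decoding centre, stood at 11.80, 11.75, 11.86 and 11.90 early. Late it stood at 10.22, 10.37, 9.67 and 10.35, a change of -1.67 (SE 0.15, limma adjusted p 7.41e-11). RPS27A stood at 9.21, 9.09, 9.01 and 9.09 early and at 7.36, 7.55, 7.15 and 7.37 late. Its groups did not overlap, and the change was -1.74 (SE 0.20, limma adjusted p 2.06e-08). RPS30A, a copy of a protein of the mRNA entry channel, stood at 10.45, 10.56, 10.50 and 10.50 early. Late it stood at 8.69, 9.01, 8.52 and 8.79, a change of -1.75 (SE 0.15, limma adjusted p 1.18e-11).

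ASC1, the WD-repeat scaffold known in mammals as RACK1, is the gene that does not carry the RPS name. It stood at 10.85, 10.83, 10.85 and 10.90 log2 RPM early and at 8.18, 8.35, 7.17 and 8.18 late. Its fall was -2.89 log2 units (SE 0.26, limma adjusted p 1.49e-09), near the large end of the range over the 56 genes. Its intron holds the snoRNA gene SNR24, which was listed in 0 libraries.

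**Figure D2:**
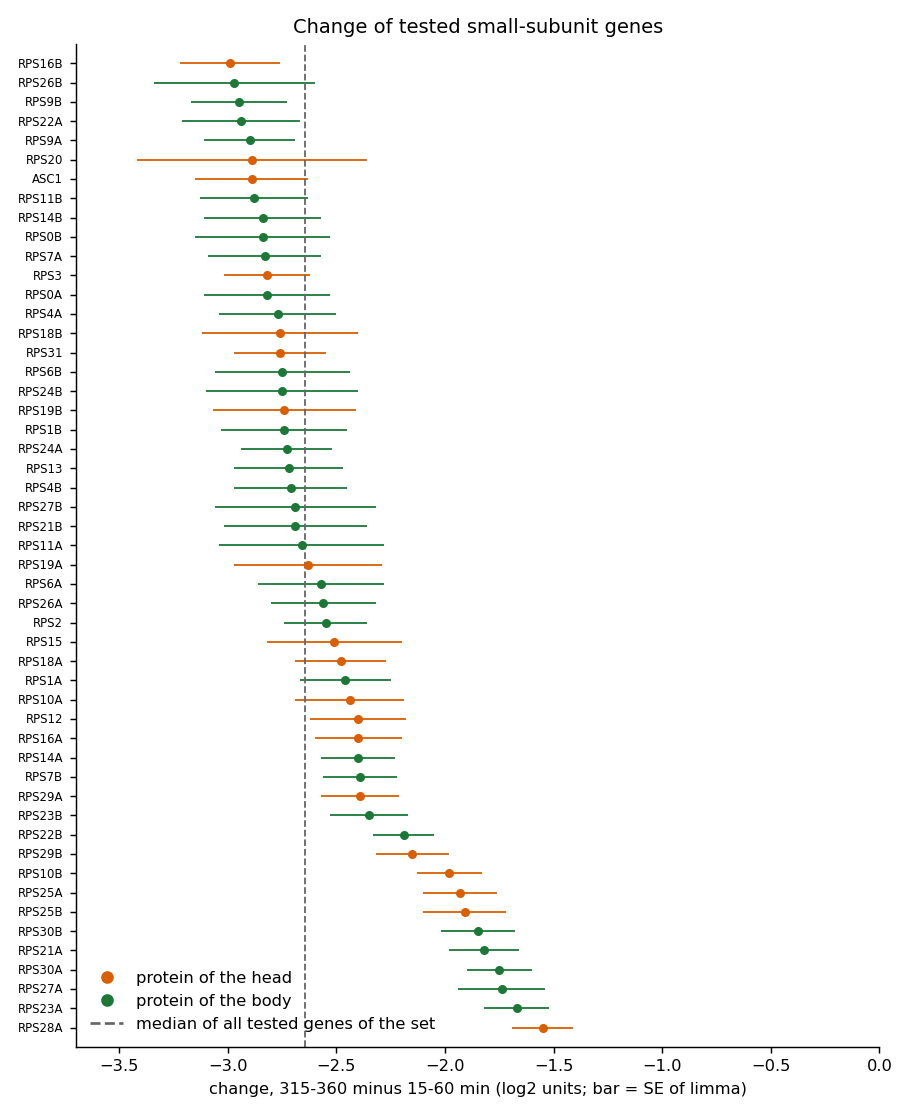
Change of 51 of the 56 tested genes from 15-60 to 315-360 min in log2 units, ordered from the largest fall (RPS16B, -2.99) to the smallest (RPS28A, -1.55). Points are limma estimates over 4 samples a window, bars are their SE, colours mark proteins of the head and body, and the dashed line is the median of all 56.

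Summed over copies, all 33 proteins were lower late, at 13.0% (RPS9) to 34.0% (RPS28) of their level at 15 to 60 min. On the scale of RPM per kb of coding sequence, which allows genes to be compared, high-phosphate levels ran from 1104 for RPS20 to 19683 for RPS21. RPS28 stood at 12874 RPM per kb early and 4369 late, and RPS23 at 18392 and 4675. RPS9 stood at 5639 and 749, so the proteins differed both in level and in how much of it was left.

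The fall was steepest between 75-120 and 135-180 min. From 15-60 to 75-120 min 0 of 56 genes passed the test in limma, and 0 did at an unadjusted p under 0.05, beside 0.309% of all genes lower and 0.397% higher. From 75-120 to 135-180 min all 56 were lower, with a median change of -1.64, where 6.77% of all genes were lower and 19.8% higher. The step ran from -2.15 in RPS29A to -0.97 in RPS28A. From 135-180 to 195-240 min all 56 had a negative change with a median of -0.82, 14 passed the test, and 0.684% of all genes were lower and 0.198% higher. At an unadjusted p under 0.05, 55 of 56 were lower at this step. The largest of the 14 were RPS9A at -1.21 (SE 0.21), ASC1 at -1.18 (SE 0.26), RPS13 at -1.17 (SE 0.25) and RPS22B at -1.02 (SE 0.14).

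The count of 14 rested on single libraries. It was 2 without the library of 135, 210 or 225 min, 8 without 240 min, 9 without 300 min and 7 without most of the others. It was 41 without 195 min, 29 without 120 min, 25 without 345 min and 24 without 180 min. It was 51 in libraries of over 550000 recovered reads, a limit chosen after the data were seen, and 5 when each sample was centred on its median gene. From 195-240 to 255-300 min 0 of 56 passed in limma and 0 did at an unadjusted p under 0.05, beside 0.0662% of all genes lower and 0.0882% higher. From 255-300 to 315-360 min both counts were again 0, beside 0.0221% lower and 0.0662% higher. From 195-240 to 315-360 min 0 of 56 passed in limma and 1 was higher at an unadjusted p under 0.05, beside 2.95% of all genes lower and 2.71% higher.

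Within the late phase the level moved with depth. The 5 late libraries at or above the median depth of all libraries, of 804867 to 1496492 reads, held 1.457% to 1.872% of reads in the 57 genes. The 7 shallower ones, of 354767 to 727859 reads, held 2.136% to 2.772%. The part of depth in these values was not tested, and both ranges lie far below the 10.368% to 11.248% of 15 to 105 min. In 33 of the 56 genes the samples of 210, 225 and 345 min all lay below the other 9 late samples. These 3 libraries have the lowest medians of the small-subunit genes, 7.695, 7.625 and 7.605 log2 RPM, so the count partly restates their choice. It was not made over all genes.

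The 120 min library stood apart from those before it and was the shallowest. In it 47 of 56 genes lay below all 7 earlier no-phosphate samples, while 6 lay above all of them, among them RPS18A, RPS23A, RPS23B, RPS28A and RPS30A. The same counts were not made over all genes, so they do not show anything particular to these 56. RPS30A was highest relative to its earlier mean, by 0.48 log2 units, and RPS11A lowest, by -2.20. The spread over genes in this library was 0.59 (SD of the change from each gene's 15-60 min mean), against 0.05 to 0.09 from 15 to 105 min, while counting error alone gave 0.12. Spreads of that size returned in deeper libraries later, with 0.57 at 210 min, 0.63 at 225 min and 0.53 at 345 min.

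Relative to the high-phosphate sample the genes were already slightly lower at 15 to 60 min. The median log2 ratio was -0.20, and 0 of 57 were 2-fold lower or higher, beside 0.577% of all genes lower and 2.45% higher. At 75 to 120 min the median was -0.35 with 0 of 57 2-fold lower or higher (0.387% and 3.72% of all genes). At 135 to 180 min 53 of 56 were 2-fold lower (6.46% of all genes lower, 14.4% higher), with a median of -2.08. All 56 were so in each later window, where 5.78%, 6.05% and 5.93% of all genes were lower and 18.6%, 19.0% and 21.8% higher, at medians of -2.95, -2.77 and -2.82. RPS9A stood apart early, at 8.81 log2 RPM in high phosphate and 9.18, 9.14, 9.27 and 9.38 from 15 to 60 min. Its mean ratio was 0.44, the highest of the 57. RPS22B had the highest ratio at 75 to 120 min, 0.36. With 1 high-phosphate library, these ratios have no test.

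The midpoint of a gene is the time at which its 3-point running mean had covered 50% of the way from its 15-60 to its 315-360 min mean. Over the 56 genes the midpoints had a median of 136.5 min (quartiles 130.9 and 140.0, range 120.7 to 170.5). For 80 large-subunit genes that fell by over 1 log2 unit the median was 133.2 min. For 63 other genes with such a fall it was 137.2 min, with quartiles of 120.6 and 199.8. The earliest were RPS27A at 120.7, RPS11A at 121.5 and RPS20 at 125.3 min. With each sample left out in turn they ran from 116.2 to 121.7, from 116.2 to 135.5 and from 114.9 to 135.3 min. RPS11A and RPS20 were lower in the 120 min library, the shallowest, than at 135 min. RPS11A stood at 7.40 and then 8.07 log2 RPM, and RPS20 at 6.34, from 17 reads, and then 7.41. RPS15 shares the value of RPS20, 125.3 min.

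The latest midpoints were in 3 genes of the body. RPS22B reached it at 170.5 min (160.9 to 174.2 over the samples left out in turn), RPS9A at 161.4 (155.5 to 165.7) and RPS30A at 155.5 (149.7 to 165.8). With midpoints taken on linear instead of log2 values, RPS22B and RPS30A were still the latest, at 146.9 and 146.2 min. RPS9A was then at 137.6 min, earlier than RPS28A at 138.8 and some others. RPS22B overlaps the snoRNA gene SNR44 on the same strand by 211 bases, and SNR44 was listed in 0 libraries. The second copies of the 3 genes came earlier, RPS22A at 140.0, RPS9B at 139.7 and RPS30B at 136.9 min. RPS22B stood at 8.65, 8.23, 8.09 and 8.11 log2 RPM from 135 to 180 min and was 7.58 at 195 min, after 9.16 on average at 15 to 60 min. Relative to the median of the 56 genes its change from 15-60 to 135-180 min was 0.94 (SE 0.28, limma adjusted p 0.0013), a contrast chosen after the course was seen. That of RPS30A was 0.95 (SE 0.27, limma adjusted p 0.000871). That of RPS9A was 0.47 (SE 0.30, limma adjusted p 0.124) and did not pass. In this contrast 5 of 56 passed above the median gene and 1 below it, RPS26B at -0.63 (SE 0.29, limma adjusted p 0.0346). Since 96.8% of all genes were higher than the median small-subunit gene, and 0.0221% lower, the adjusted values are close to the unadjusted ones.

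**Figure D3:**
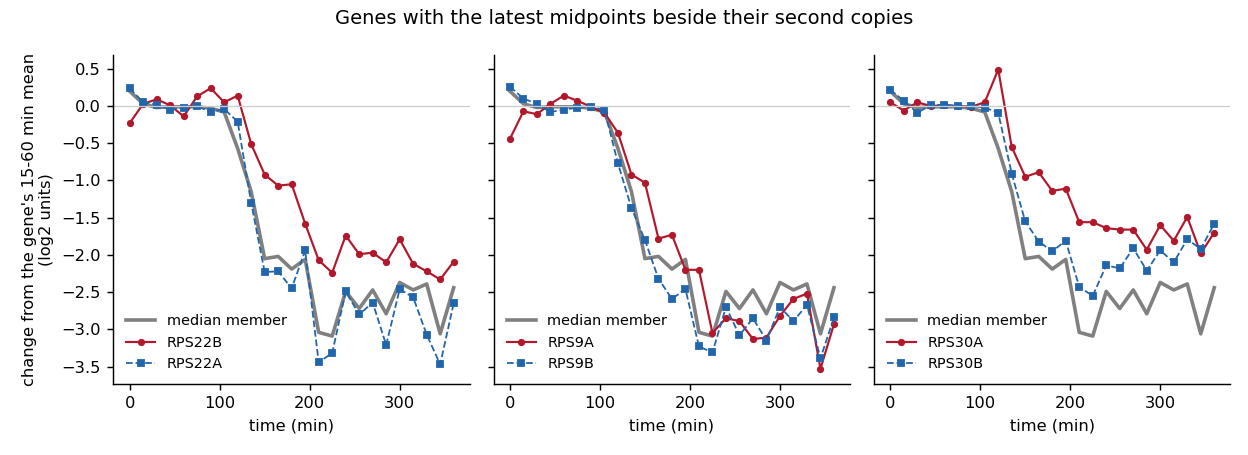
Change from the gene's own 15-60 min mean (log2 units) against time (min) for RPS22B, RPS9A and RPS30A (red circles), their other copies (blue squares) and the median member (grey). RPS22B and RPS30A lie above the median gene from 135 to 180 min, and RPS9A joins its second copy by the end.

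Over the whole course, relative to the median gene of the set, 9 of 56 genes passed as higher at 315-360 min and 0 as lower, beside 97.1% of all genes higher and 0.0441% lower. They were RPS28A at 1.04 (SE 0.26, limma adjusted p 0.000158), RPS23A at 0.91, RPS27A at 0.84, RPS30A at 0.84, RPS21A at 0.76, RPS30B at 0.73, RPS25B at 0.67, RPS25A at 0.65 and RPS10B at 0.60. With array weights 9 genes passed as lower. Because 97.1% of all genes passed as higher, the adjusted values are close to the unadjusted ones. For RPS10B limma gave an adjusted p of 0.0278 and an unadjusted p of 0.027. No adjustment over the 56 genes alone was made, so the genes listed as higher are not corrected for the choice among them.

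The other single-copy genes described here lay inside the range of the set. RPS3, of the mRNA entry channel, changed by -2.82 (SE 0.20). RPS31, which is made as a fusion with ubiquitin, changed by -2.76 (SE 0.21), RPS13 by -2.72 (SE 0.25) and RPS2 by -2.55 (SE 0.19). RPS15, which reaches the decoding centre, changed by -2.51 (SE 0.31) and RPS12 of the beak by -2.40 (SE 0.22), the smallest fall of the 9 single-copy genes. RPS20 was the least abundant of the 33 proteins' transcripts per kb in high phosphate, and the least precise. It stood at 8.46, 8.37, 8.46 and 8.52 log2 RPM early and at 5.44, 5.98, 4.88 and 5.98 late, and was as low as 3.64 at 225 min. Its groups did not overlap, and its change was -2.89 with the largest SE of the set, 0.53.

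Some pairs fell alike in both copies. RPS0, needed for late maturation of the ribosomal RNA of the subunit, changed by -2.82 in the A copy and -2.84 in the B copy. RPS25, a protein of the head that growth does not require, changed by -1.93 and -1.91. In other pairs 1 copy lay at the small end of the range and the other did not. RPS23A changed by -1.67 and RPS23B by -2.35, and RPS27A by -1.74 and RPS27B by -2.69. The short RPS29, a zinc-binding protein of the head, changed by -2.39 and -2.15.

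Grouped by position, the 22 tested genes of the head had a median change of -2.48 and the 34 of the body -2.70. Grouped by gene structure, those with an intron had -2.69 and those without -2.55, and single-copy genes had -2.76 against -2.57 for duplicated ones. The 9 tested genes of proteins of at most 90 residues had a median of -1.85 and the other 47 -2.72, a limit chosen after the values were seen, so no test is given. RPS21B at -2.69 was the largest fall of the 9. At the same limit, 7 large-subunit genes had a median of -2.24 and the other 74 -2.52. Outside both sets, 130 genes of such short proteins had a median of 0.41 and 4151 longer ones 0.35. Across the 56 genes the change and coding length had a Pearson correlation of -0.54 and a Spearman correlation of -0.51. The same was -0.02 and -0.19 for 81 large-subunit genes and 0.01 and 0.04 for 4281 other genes. These are descriptions over genes of the same libraries, and copies of a pair share their length.

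**Figure D4:**
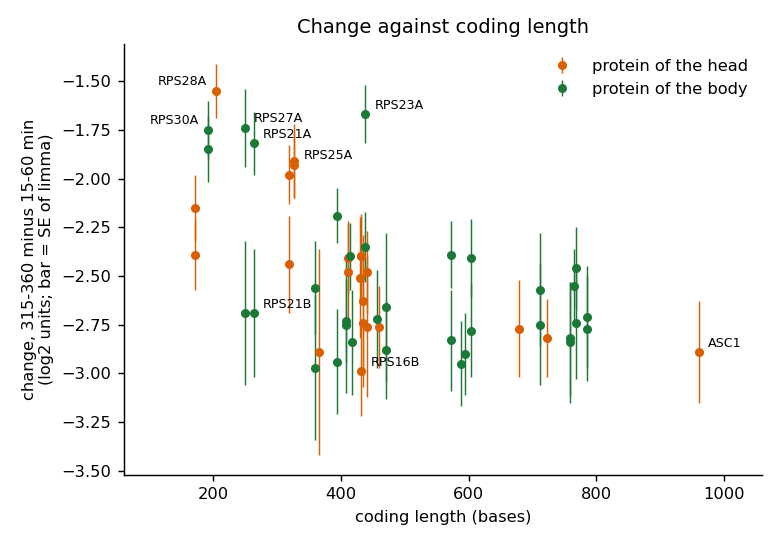
Change from 15-60 to 315-360 min (log2 units, bars are limma SE) against coding length in bases for the 56 genes, coloured by head or body. The 9 genes of proteins of at most 90 residues lie between -2.69 and -1.55, and RPS23A (-1.67) is the highest of the longer ones.

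Pairs were compared by the log2 ratio of the A to the B copy within each library, which does not depend on how the library was scaled. Of 23 pairs tested, 13 changed between 15-120 min (8 samples) and 195-360 min (12 samples) by an exact permutation test, with p adjusted over the 23 pairs. The A copy gained on the B copy in 9 and lost in 4. In 5 of the 13, RPS10, RPS1, RPS23 and RPS30 among them, the copy with the higher mean over these samples changed from one to the other. In RPS30 and RPS10 this did not last to the end of the course. The mean ratio of RPS30 was -0.15 at 15-60 min, 0.62 at 195-240 min and -0.04 at 315-360 min, and that of RPS10 was 0.48, -0.50 and 0.02. In 9 of the 13 the copy that was higher early fell more.

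RPS27 changed most. Its log2 ratio ran from -1.37 to -0.70 early, with a median of -1.07, and from -0.70 to 0.37 late, with a median of -0.15. The 2 ranges met at -0.70, and the change was 0.87 (two-sided exact p 7.94e-06, the smallest these samples allow, adjusted 9.13e-05). RPS21, an eS21 protein that binds next to Rps0, ran from -1.59 to -0.98 early (median -1.41) and from -1.30 to 0.10 late (median -0.64). The ranges overlapped, and the change was 0.79 (two-sided exact p 6.35e-05, adjusted 0.000243). RPS22 ran from 1.18 to 1.65 early (median 1.45) and from 0.16 to 1.17 late (median 0.75), so the A copy stayed higher in every sample but by less, a change of -0.71 (two-sided exact p 3.18e-05, adjusted 0.000146). RPS23 ran from -0.37 to -0.18 early (median -0.29) and from 0.06 to 0.55 late (median 0.39). The groups were apart, and the B copy was higher in every early sample and the A copy in every late one, a change of 0.66 (two-sided exact p 7.94e-06, adjusted 9.13e-05).

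Among the other pairs that passed, the ratio changed by 0.33 to 0.51 log2 units upward in RPS1, RPS26, RPS14, RPS16 and RPS30 and by -0.42 to -0.58 in RPS7, RPS29 and RPS10. RPS14 is known for control of its B copy by its own protein, and the A copy led by a median of 3.12 early and 3.68 late. RPS30 passed with an adjusted exact permutation p of 0.0483. The 10 others changed by -0.11 to 0.22, with a smallest adjusted p of 0.248, among them RPS25 at 0.03 and RPS9 at 0.06, whose early ratios were 2.18 and -2.11 on average. Of the 4 pairs that share over 30% of their 36-base stretches, 1 passed. Read numbers that were not whole also occurred in other pairs that passed, such as RPS22 and RPS29. Reads that match both copies may enter those ratios too, and their part was not tested. For RPS28, the A copy was at 11.45 and the B copy at 5.17 log2 RPM in high phosphate.

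**Figure D5:**
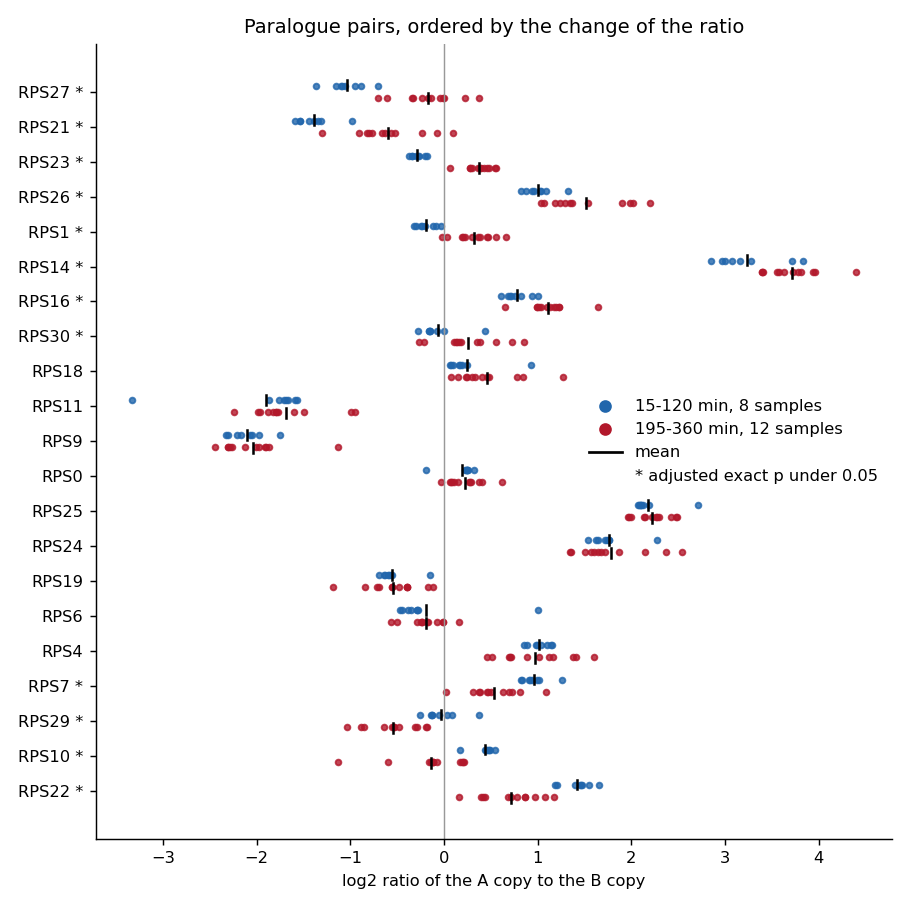
Log2 ratio of the A to the B copy in each library for 21 of the 23 pairs tested, ordered by change, with early samples (15-120 min, blue), late samples (195-360 min, red) and their means (black). Stars mark the 12 pairs shown with an adjusted exact p under 0.05, and RPS27, RPS21 and RPS23 are among the largest upward changes.

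The promoters of the genes were searched for short motifs. A Rap1-type motif, ACCCNNNCA on either strand, was in the 400 bases before the start codon of 21 of 57 genes (36.8%), against 10.3% of 6001 promoters and 37 of 81 large-subunit ones. A stress-type element, AGGGG, was in 19.3% of the genes and 28.9% of all promoters, and an Abf1-type motif in 17.5% and 18.9%. Letters that match the Rap1-type motif can also hold the stress-type letters on the opposite strand, and such overlaps were not removed. A match is a description, not a site. The 40 bases around the match are printed 5′ to 3′ on the gene strand, with the motif in capitals, from build R64. They are shown for some of the 21 genes with a match, picked among those named above. They lie at chrIV:308127-308166 (RPS16B, minus strand), chrVII:726694-726733 (RPS23A, plus), chrXVI:794642-794681 (RPS23B, plus), chrXI:158387-158426 (RPS27A, plus), chrX:157591-157630 (RPS21B, minus) and chrXVI:404693-404732 (RPS9A, plus).
RPS16B: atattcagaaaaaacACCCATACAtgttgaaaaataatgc
RPS23A: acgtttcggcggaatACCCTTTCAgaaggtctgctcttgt
RPS23B: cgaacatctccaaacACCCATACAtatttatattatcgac
RPS27A: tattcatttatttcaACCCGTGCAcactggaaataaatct
RPS21B: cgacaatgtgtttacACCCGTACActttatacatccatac
RPS9A: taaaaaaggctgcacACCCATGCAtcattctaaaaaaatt
The match lies 362, 265, 308, 211, 342 and 242 bases before the start codon in that order. The printed genes include that of the largest fall, RPS16B, and some of the smallest, RPS23A and RPS27A. Whether a match went with the size of the fall over all 57 genes was not tested. On chromosome X, RPS14B and RPS22A lie tail to tail with 298 bases between them, and their changes were -2.84 and -2.94.

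Genes that act around the 40S subunit were compared between 15-60 and 315-360 min in the same limma fit, in which 10.0% of all genes were lower and 37.8% higher, with a median of 0.33. Of 24 tested factors of 40S assembly, 5 were lower and 0 higher, with a median of -0.02, among them UTP22 of the small-subunit processome at -1.23 (SE 0.18), the methylase gene NOP1 at -1.13 (SE 0.25) and NOP58 at -0.76 (SE 0.18). Of 31 tested mitochondrial small-subunit genes 0 were lower and 5 higher, with a median of 0.12, RSM10 at 1.21 (SE 0.14). Of 13 tested regulators of ribosomal protein genes 0 were lower and 8 higher, with a median of 0.60. STB3, a repressor of ribosome synthesis genes, was at 1.85 (SE 0.25), TPK2, a protein kinase A subunit, at 1.32 (SE 0.24) and FHL1 at 1.08 (SE 0.30). FHL1 averaged 3.65 log2 RPM early, below the lowest values listed at 315, 330 and 360 min, 4.01, 4.22 and 4.30. At that level it would have had too few late values for the fit. Its place among the 8 therefore rests on a filter that it passed only by being higher late. RAP1 had a change of 0.02 (SE 0.17) and HMO1 of -0.19 (SE 0.12), and neither passed.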

How the data were processed

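RNA of 25 samples was sequenced on an Illumina instrument after enzymatic lysis in plates, per the labels' protocols, and reads were aligned with Bowtie to build R64, per the submitters' processing notes. Not given in the sources used here are the aligner version, the counter, strand and the handling of reads with several matches. The authors deposited log2 values whose linear values sum to 1000000 in each column (log2 RPM). They are not ratios to the first time, although the labels' design text speaks of such a normalization. Genes below a floor have no value, and the floor was taken as 10 reads, which the files do not state. Of values below 400 RPM, 96.27% were whole multiples (within 0.01) of the value of 1 read, which gave depth only, and a count model was not run on log2 values. Intervals of that depth cover counting error only.

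limma 3.58.1 in R 4.3.3 (lmFit, eBayes with trend and robust) fitted 6 window means to genes with at least 3 values in each window, with Benjamini-Hochberg adjustment over all 4535 genes and a threshold of 0.05. Pair ratios were tested by exact permutation over 125970 splits. Values relative to the median gene subtract the median of 56 members in each sample. Both tests were checked on simulated data. The members and lists were chosen with earlier results of these data known. Values in single samples are given for the 4 largest and 4 smallest falls, for ASC1 and for the 4 pairs with the largest change of ratio, and the 3 earliest and latest midpoints are named. Other settings were another scaling, pseudocount, filter, weights, windows, samples left out and summed copies. Sequences and coordinates come from the RefSeq annotation and genome of build R64, the files' build. A few genes were part of every fit and count but are not reported here by name.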

Additional observations from a re-analysis of the deposited data

Results flagged for a closer look

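In 72 sets of 4 neighbouring samples, 15 held a sample far from the other 3, by a limit that 1 in 20 independent sets would pass by chance. The 72 sets are 12 items in the same 6 windows, so they share libraries and move together. Levels also fell within some windows, so the 15 cannot be compared with that rate. The sample of 120 min was lowest in 7.94% of reads in the 57 genes, in the median level of 10.14 log2 RPM and in the small-to-large read ratio of 0.55. It was also lowest for RPS16B at 9.55, RPS26B at 8.46, RPS9B at 10.63, RPS27A at 8.14 and ASC1 at 10.14 log2 RPM, and highest for RPS30A at 10.99. It is the shallowest library and falls at the start of the decline, and these 2 cannot be told apart. The sample of 135 min was highest of its window in read share, 5.18%, and in median level, 9.64 log2 RPM. At 345 min, the deepest late library, RPS26B at 6.00 and ASC1 at 7.17 log2 RPM were lowest. RPS30A was highest at 195 min, 9.39, and lowest at 285 min, 8.56 log2 RPM.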

How the results depend on the processing

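Of 893 alternative values for 35 results, 865 kept their direction and side of the threshold or stayed within the limits set, and 0 reversed. Only the results for single genes could be called reversed. Counts, medians and midpoints could only stay or move, so the 0 says nothing about those. The median change of -2.65 was -3.05 when rescaled to reads outside ribosomal protein genes. The count of 14 at 195-240 minus 135-180 min was 5 with samples centred on the median gene, 51 in libraries of over 550000 reads, a limit chosen after seeing the data, and 2 to 41 with each sample left out in turn. With array weights 9 genes were lower than the median gene instead of 0, and RPS9A passed at 0.36 from 15-60 to 135-180 min (limma adjusted p 0.00452). No pair passed with 15-60 against 315-360 min, where the smallest exact p is 0.0286, against 13 in 8 and 12 samples. In libraries of over 550000 reads 13 of the 13 pairs passed again, with 2 more in addition, RPS18 among them. The causes were not tested, except that fewer samples raise the smallest p. No paired analysis was possible because each time has 1 library and the labels carry no replicate numbers. RPS28B lay near the floor, with 10 to 18 reads in the libraries that listed it from 135 min on, and was missing from deep libraries too, such as that of 345 min. The 120 min library had the fewest reads.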
